A study of Mus musculus with 2 samples.

Results

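The blood-rich spots of the NCD liver section are the 210 spots with the highest share of globin transcripts among the 2107 spots that held at least 3000 UMIs, out of 3692 spots over tissue in this section and 7286 in both sections. Members were chosen by measured values of these sections: spots were ranked by the UMIs of Hba-a1, Hba-a2, Hbb-bs and Hbb-bt divided by all UMIs of the spot, ties being kept in file order. The richest 10% (210 spots) are the members described here, and the poorest 30% (632 spots) served as the comparison. A UMI is a molecular tag that lets each captured RNA molecule be counted once. The data are 10x Visium spatial transcriptomes, made from tissue placed over an array of barcoded capture spots, and 1 spot can hold several cells of different types. The study compared normal chow (NCD) with a high-fat diet (HFD) and, in other animals, with drug treatments that are not analysed here.

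Both sections came from male C57BL/6J mice bought at 5 weeks of age and acclimated for 1 week, with 14 weeks of NCD or HFD followed by 8 weeks in which both groups were given water orally. No transgene or engineered allele is named for either group. Each diet is represented by 1 frozen section of 10 µm, so diet, animal, section and slide cannot be told apart and no test across animals was possible. All intervals below are exact, at the 95% level, and take in only the error of counting. Intervals for a share of spots count each spot as an independent draw, although all spots of a group come from 1 section. They do not measure variation between animals. The methods state hepatic perfusion for livers taken for single-cell sequencing and do not state it for these sections. The labels also name an immune cell type and a haematopoietic stem cell line. The defining genes went against these words. Alb, the albumin gene of hepatocytes, was found at 56011 CPM (the UMIs of a gene scaled to a total of 1000000) in the NCD section, against 6.61 CPM for the pan-leukocyte gene Ptprc and 3.07 CPM for the stem cell receptor Kit, so the section is described as liver. The members had a median of 10969 UMIs per spot and the comparison spots 7087.5. On the NCD slide 741 of the 1300 spots called off tissue also held at least 3000 UMIs, which puts the tissue call of this slide, and so which spots could become members, in doubt. The off-tissue spots as a whole had a globin share of 0.605%, near the 0.668% of all spots over tissue. Of the barcodes over tissue, 3173 occur in both sections, because slides of this kind carry the same barcodes.

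Haemoglobin is the oxygen carrier of red blood cells and is built from alpha chains (Hba-a1, Hba-a2) and beta chains (Hbb-bs, Hbb-bt). Mature mammalian red cells have no nucleus, and the RNA found in blood comes mostly from reticulocytes, the youngest red cells, in which globin transcripts dominate. Blood enters the liver through the portal vein and hepatic artery in the portal tracts, passes the sinusoids and leaves through the central veins. Portal tracts also hold bile ducts, smooth muscle, fibroblasts and lymphatic vessels.

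The genes that define these spots sit in 2 clusters and share promoter letters. The alpha genes lie on chromosome 11 and the beta genes on chromosome 7, while Alas2, the red cell form of the first enzyme of haem synthesis and the most abundant other red cell gene in the members, lies on the X chromosome. The 120 bases before the RefSeq start of each gene are shown 5′ to 3′ on the strand of the gene (RefSeq, GRCm38.p6), since these genes are counted together in the same spots. Capitals mark every match, on either strand, to the GATA motif (letters GATAA), the CACCC box, the CAAT box (letters CCAAT) and the TATA motif (letters TATAA).
Hba-a1: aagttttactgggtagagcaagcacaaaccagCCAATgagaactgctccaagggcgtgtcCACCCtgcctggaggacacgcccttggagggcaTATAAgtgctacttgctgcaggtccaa
Hba-a2: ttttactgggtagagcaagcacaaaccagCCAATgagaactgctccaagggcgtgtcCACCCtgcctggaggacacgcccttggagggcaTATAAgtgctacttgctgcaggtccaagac
Hbb-bs: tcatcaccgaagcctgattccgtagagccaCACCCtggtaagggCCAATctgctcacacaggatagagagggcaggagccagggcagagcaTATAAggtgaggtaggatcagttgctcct
Hbb-bt: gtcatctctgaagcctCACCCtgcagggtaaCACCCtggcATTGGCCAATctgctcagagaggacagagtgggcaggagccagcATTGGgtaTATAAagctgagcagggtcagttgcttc
Alas2: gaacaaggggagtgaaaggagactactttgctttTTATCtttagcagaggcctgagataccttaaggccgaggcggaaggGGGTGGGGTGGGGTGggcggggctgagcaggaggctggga
The windows are chr11:32283552-32283671 (+) for Hba-a1, chr11:32296372-32296491 (+) for Hba-a2, chr7:103827929-103828048 (-) for Hbb-bs, chr7:103813924-103814043 (-) for Hbb-bt and chrX:150547297-150547416 (+) for Alas2. Each of the 4 globin windows held the CACCC box, the CAAT box and the TATA motif, and none held the GATA motif. The Alas2 window held 3 matches to the CACCC box, which adjoin end to end, and 1 to the GATA motif. All lay on the opposite strand, and the window held none of the other motifs. In Hbb-bt, adjoining matches to the CAAT box on opposite strands are counted separately. Of 32851 RefSeq windows of this length, 31.7% held the CACCC box, 21.3% the CAAT box, 11.8% the TATA motif and 10.5% the GATA motif. The matches describe letters only.

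The 4 globins chose the members, so their levels are a description. The members held 115563 globin UMIs, 4.04% of all their UMIs, against 0.361% in the middle 60% of spots and 0.0185% in the comparison spots. Across the 210 members the share ran from 1.83% through a median of 3.48% to 14.8%. The last spot inside the border had 1.8305% and the first outside 1.7936%, so the border cuts a continuous slope and not a gap. These 210 spots held 59.6% of the globin UMIs of the section with 9.84% of its UMIs. The number of spots that rank as blood-rich is bounded by depth as well: 129 of the 1585 spots under 3000 UMIs reached the same share, the highest being 55.3% in a spot of 1041 UMIs.

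**Figure D1:**
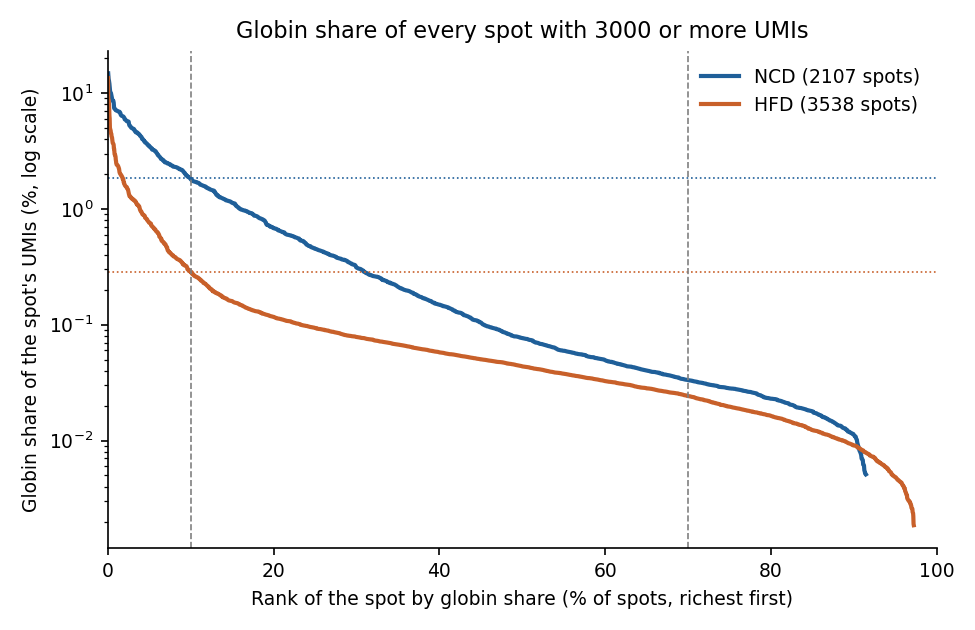
The globin share of each spot with 3000 or more UMIs (y axis, percent of the spot's UMIs, log scale) is plotted against its rank (x axis, percent of spots, richest first) for the NCD and HFD sections. Vertical dashed lines mark the richest 10% and the poorest 30%, dotted lines the border of the richest 10% in each section (1.83% and 0.286%), and the 180 NCD and 98 HFD spots without a globin UMI are not drawn.

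Each globin was found in each of the 210 members. Hbb-bs, the more abundant beta chain here, had 25 UMIs in the lowest member, 195 in the median and 1685 in the highest. Hba-a1 had 15, 111 and 989 UMIs and Hba-a2 9, 87 and 788 UMIs. Hbb-bt, the other beta chain, was the lowest of the 4, with 1, 17 and 147 UMIs. In the comparison spots the highest count of any of the 4 in a single spot was 7, so the groups do not overlap for Hba-a1, Hba-a2 or Hbb-bs, which the rule itself brings about.

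The chains kept almost the same proportions over the members and the middle spots and differed in the comparison spots. Alpha transcripts were 49.7% of the globin UMIs in the members (Clopper-Pearson interval 49.37 to 49.95), 47.9% in the middle spots (47.5 to 48.2) and 38.1% in the comparison spots (35.3 to 41.0). Within the alpha chains, Hba-a1 made up 54.9% in the members (54.5 to 55.3) and 35.2% in the comparison spots (30.8 to 39.9). The Hba-a1 and Hba-a2 transcripts of GENCODE M21 differ at 1 of 538 aligned bases, so how reads were divided between them is uncertain. Hbb-bs and Hbb-bt differ at 43 of 625 aligned bases, and Hbb-bs was 90.8% of the beta UMIs in the members and 89.7% in the comparison spots. Each chain was also measured in spots ranked by the other one. Both chains belong to the rule, so these values too are a description and lend no support to the choice of members. Ranked by beta chains alone, 202 of the 210 richest spots were members, and their alpha level was 7.38 log2 units above that of the poorest 30% (7.28 to 7.48). Ranked by alpha chains alone, 201 were members, and the beta level was 6.83 log2 units higher (6.75 to 6.92). The embryonic and theta globins (Hbb-y, Hba-x, Hbb-bh1, Hbb-bh2, Hbq1a and Hbq1b) had 5 UMIs in all in the members.

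Red cell genes outside the globin family were higher in the members, which the rule did not use. Here and below, CPM are pooled over a group of spots with the 4 globins left out of the total, and a log2 ratio is members over comparison spots. The 21 genes of the list together had 701 UMIs (256 CPM) in the members, 74.5 CPM in the middle spots and 67.0 CPM in the comparison spots, a log2 ratio of 1.93 (1.76 to 2.11). A spot had at least 1 UMI of the list in 83.3% of members and 43.0% of comparison spots. After each spot was drawn down to 3000 UMIs these shares were 48.6% (41.6 to 55.5) and 17.2% (14.4 to 20.4), so in this section members were ahead at equal depth too. Of the 4 genes of the list with at least 50 UMIs over both groups, among them Alas2, Bpgm and Tent5c, 4 were at least 2-fold higher and 0 lower, where 0.85% of the 7768 genes with that minimum were at least 2-fold higher and 0.348% at least 2-fold lower. Their median log2 ratio was 2.65, against -0.0059 over all those genes.

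Alas2 carried most of these UMIs. A member held between 0 and 12 Alas2 UMIs with a median of 1, and 157 of 210 members had at least 1, while the comparison spots ranged from 0 to 5 with a median of 0 and 220 of 632 had at least 1. The ranges overlap. Pooled, Alas2 stood at 149.9 CPM in the members, 54.1 CPM in the middle spots and 50.6 CPM in the comparison spots, a log2 ratio of 1.57 (1.35 to 1.78). The gene thus kept a level in poor spots where globins nearly vanished, and there were 3.56 Alas2 UMIs per 1000 globin UMIs in the members, 14.9 in the middle spots and 274 in the comparison spots. The source of the Alas2 UMIs in globin-poor spots was not tested.

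Tent5c and Bpgm, both known from red cells, were higher as well. Tent5c, a poly(A) polymerase, had 67 UMIs in the members and 13 in the comparison spots (log2 ratio 3.55, 2.68 to 4.53). Bpgm, which makes the bisphosphoglycerate that tunes oxygen release, stood at 31.4 and 9.29 CPM (1.75, 1.26 to 2.26) and also kept a level in the poor spots.

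Some genes of the red cell list were rare in the members and at 0 in the comparison spots. Slc4a1, the anion exchanger of the red cell membrane, had 24 UMIs in 16 members and 0 in the comparison spots, at least 18.2-fold higher when the comparison is set to 3 counts over the group. Epb42, a membrane skeleton gene, had 5 UMIs and Trim10, an erythroid ubiquitin ligase, 7 UMIs in the members, and both had 0 in the comparison spots. Klf1, the transcription factor of erythroid precursors, went with none of this: it had 10, 78 and 26 UMIs in the members, middle and comparison spots, which is 3.65, 4.31 and 4.17 CPM. Gata1 had 1 UMI in the members, and Trim58, Rhag, Kel, Ermap, Hemgn and Cldn13 had 0 in all 3 groups, where a count of 0 allows up to 1.09 CPM in the members. Genes of dividing cells, as a check for erythroid precursors, were at 7.29 CPM in the members and 5.93 CPM in the comparison spots (log2 ratio 0.30, -0.56 to 1.12).

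**Figure D2:**
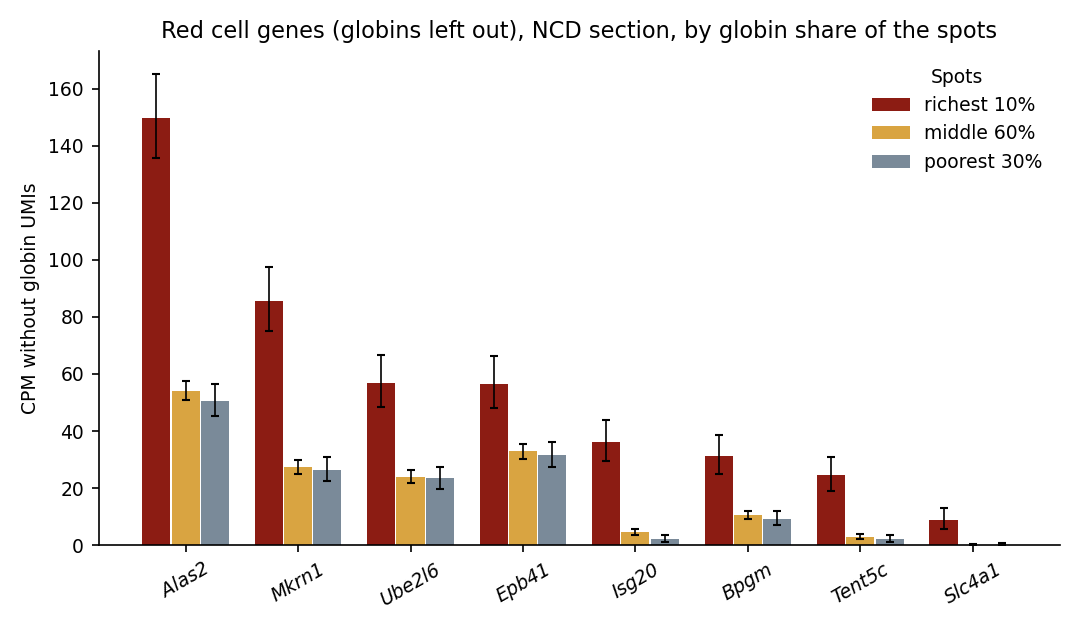
Bars give the pooled level (CPM, globin UMIs left out of the total) of 8 red cell genes in the richest 10%, the middle 60% and the poorest 30% of NCD spots, with exact 95% Poisson intervals for counting error. Alas2, Mkrn1, Ube2l6, Epb41 and Bpgm keep a level in the middle and poorest spots, while Slc4a1 is close to 0 there.

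Genes that red cells share with other liver cells divided into those that were higher and those that were level. Isg20, an exonuclease, was at 36.1 CPM in the members against 4.53 CPM in the middle and 2.08 CPM in the comparison spots (log2 ratio 4.12, 3.28 to 5.07). Mkrn1, a ubiquitin ligase, was at 85.7 against 26.4 CPM (1.70, 1.40 to 1.99), and it had 0 to 12 UMIs per member with a median of 1. Ube2l6, the ubiquitin-like conjugating enzyme of the ISG system, was at 56.9 against 23.4 CPM (1.28, 0.95 to 1.62). Epb41, another membrane skeleton gene, was at 56.5 against 31.6 CPM (0.84, 0.53 to 1.15). Fech, the last enzyme of haem synthesis, and Prdx2, an abundant red cell peroxidase, both had a log2 ratio of 0.09, and both intervals spanned 0. Of the 12 genes of this list with at least 50 UMIs, 3 were at least 2-fold higher and 0 lower, and the list as a whole had a log2 ratio of 0.31 (0.24 to 0.38). Platelet genes, the other enucleate part of blood, had 47 UMIs in each group, a log2 ratio of 1.19 (0.57 to 1.80), led by Pf4, platelet factor, with 21 and 9 UMIs.

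Genes of the vessel wall were higher in the same spots. In the pooled data, more cells of a type and more RNA per cell cannot be told apart. The smooth muscle list stood at 149 CPM in the members, 56.6 CPM in the middle and 37.8 CPM in the comparison spots, a log2 ratio of 1.98 (1.75 to 2.22). Acta2, smooth muscle actin, had 89 UMIs in 35 members and 19 UMIs in 15 comparison spots (3.41, 2.69 to 4.21), and no member held more than 7. Tagln, transgelin, had 98 UMIs in 42 members and 26 in 18 comparison spots (3.10, 2.46 to 3.78). Myl9 and Myh11, the smooth muscle myosin chains, had log2 ratios of 3.42 and 3.37. Mylk and Tpm2, which many cells express, were near level at 0.28 and 0.46 with intervals that spanned 0. Of the 6 genes of this list with at least 50 UMIs, 4 were at least 2-fold higher and 0 lower.

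The list of portal fibroblasts and collagens stood at 152, 70.1 and 39.6 CPM in members, middle and comparison spots (1.94, 1.71 to 2.17), and 4 of its 5 genes with at least 50 UMIs were at least 2-fold higher. Mgp, a matrix protein that keeps vessel walls free of calcium, had 143 UMIs in 66 members, 0 to 10 per member, and 39 UMIs in 29 comparison spots (3.06, 2.54 to 3.61). Dpt, dermatopontin, had a log2 ratio of 2.74 (1.83 to 3.73), Col1a2 of 1.84 (1.25 to 2.45) and Col3a1 of 1.14 (0.60 to 1.68). Lum, lumican, had the smallest log2 ratio of the 5 at 0.78 (0.23 to 1.32). Stellate cell genes, the pericytes of the sinusoid, did not share this: their log2 ratio was -0.031 (-0.13 to 0.066), with 0 of 7 genes at least 2-fold higher.

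Endothelial genes were higher for large vessels and level for sinusoids. Large vessel endothelium had a log2 ratio of 0.97 (0.78 to 1.17), and its marker Vwf, von Willebrand factor, was at 27.4 against 7.21 CPM (1.92, 1.37 to 2.49), found in 47 members and 33 comparison spots. Sinusoidal endothelium stood at 351 and 363 CPM (-0.049, -0.16 to 0.060), with 0 of its 13 genes at least 2-fold apart. Central vein endothelium stood at 22.2 and 26.1 CPM, a log2 ratio of -0.23 with an interval from -0.68 to 0.20. Rspo3, the Wnt co-agonist made by central veins, was at 9.12 and 9.13 CPM.

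A UMI of the bile duct list was found in many members and of the lymphatic list in few, but few bile duct genes were well counted. The bile duct list stood at 218 and 102 CPM (1.09, 0.93 to 1.25). Of its 8 genes, 2 (Spp1 and Cldn3) had at least 50 UMIs over both groups, 1 of them at least 2-fold higher and 0 lower. The list had a UMI in 160 of 210 members (76.2%) and in 49.4% of comparison spots, or 39.5% and 22.0% at 3000 UMIs per spot. Such a UMI need not mark a bile duct, since hepatocytes also express Cldn3. The capsule and lymphatic list had a UMI in 38 members (18.1%) and in 3.8% of comparison spots. Spp1, osteopontin, which bile duct cells secrete, had 284 UMIs in 70 members, 0 to 33 per member, and 133 UMIs in 74 comparison spots (2.28, 1.98 to 2.59), and without the 10 spots with the most of its UMIs in each group the bile duct list stood at 0.76. Cldn3, which hepatocytes also express, had a log2 ratio of 0.28 (0.06 to 0.51), and the keratins Krt19 and Krt7 had 4 and 6 UMIs in the members. Ccl21a, the chemokine of lymphatic endothelium, had the highest log2 ratio among genes with at least 200 UMIs at 3.31 (2.80 to 3.85), but only 32 of 210 members held it, with up to 27 UMIs in 1 member, and 17 comparison spots held it with up to 13. Mmrn1, a second lymphatic endothelial gene, had 22 and 6 UMIs (3.06, 1.71 to 4.65). Of the capsule genes in the list, Upk1b and Msln had 1 UMI each in the members and Wt1, Lrrn4 and Upk3b had 0.

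The leukocyte lists lay above 0, and differences between them were not tested. Plasma cell and immunoglobulin genes stood at 200 CPM in the members, 231 CPM in the middle and 56.7 CPM in the comparison spots (1.82, 1.62 to 2.01), and this rested on single spots. Iglc1, an immunoglobulin light chain, had 149 UMIs in the members, of which 99 lay in 1 spot, and 2192 UMIs in the middle spots, of which 1797 lay in 1 spot. Its log2 ratio of 2.22 over the comparison spots became -0.78 over all other spots and -0.0022 without the 10 spots with the most of its UMIs in each group. Igkc, the kappa chain, had 174 UMIs with up to 71 in 1 member (1.43, 1.10 to 1.76), and the immunoglobulin list stood at 0.45 without its 10 richest spots in each group. T and NK cell genes were at 36.5 and 21.8 CPM (0.74, 0.36 to 1.13), with Nkg7, a granule gene, at 27 and 28 UMIs and Trac, a T cell receptor chain, at 17 and 12 UMIs. Monocyte genes stood at 0.64 (0.18 to 1.10) and, with each spot drawn down to 3000 UMIs, at 0.31 (-0.74 to 1.27), while neutrophil (0.47) and B cell (0.48) lists had intervals that reached below 0.

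Kupffer cells, the macrophages that line the sinusoids and remove aged red cells, showed no excess in blood-rich spots. Their list stood at 426 and 455 CPM (-0.093, -0.19 to 0.006) with 0 of 10 genes at least 2-fold apart. Clec4f, their lineage lectin, had a log2 ratio of -0.22 (-0.52 to 0.075), Cd5l, a secreted macrophage protein, of -0.41 (-0.67 to -0.17), and the complement genes C1qa, C1qb and C1qc lay between -0.06 and 0.18. Fcna, a macrophage ficolin and 1 of the 15 lowest genes, was at 50.7 CPM in the members, 62.2 CPM in the middle and 74.3 CPM in the comparison spots (-0.55, -0.84 to -0.28).

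Genes that handle released haemoglobin and haem were nearly level. The list of 11 genes had a log2 ratio of 0.13 (0.10 to 0.16), carried by hepatocyte genes: Hpx, the haem carrier of plasma, at 2807 and 2448 CPM (0.20) and Hp, haptoglobin, at 2044 and 1932 CPM (0.08). Cd163, the macrophage receptor for haptoglobin-bound haemoglobin, was lower at 3.65 against 7.85 CPM, but with 10 and 49 UMIs (-1.11, -2.25 to -0.11). Hmox1, haem oxygenase, which opens the haem ring, was also lower with 25 and 95 UMIs (-0.74, -1.44 to -0.09). Enzymes of haem synthesis other than Alas2 stood at -0.083 (-0.16 to -0.010), with Alas1, the liver form of the first enzyme, at 287 and 306 CPM. Iron genes stood at -0.016 (-0.031 to -0.002), and Hamp, hepcidin, the hormone that limits iron release, was lower in the members (3547 CPM) and the comparison spots (3800 CPM) than in the middle spots (4168 CPM).

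Hepatocyte zone genes moved by little. Pericentral genes stood at 12541 CPM in the members, 13948 CPM in the middle and 14087 CPM in the comparison spots (-0.17, -0.19 to -0.15). Levels also varied among spots that are not members. When spots were cut into deciles of the globin share (1 is the richest), these genes stood at 14510 CPM in decile 3 and 12588 CPM in decile 4, the latter close to the members. Cyp2e1, the ethanol-metabolising cytochrome of the pericentral zone, was at -0.16, Oat, ornithine aminotransferase, at -0.25 and Cyp1a2 at -0.22, but Glul, glutamine synthetase of the innermost cell layer, was level at 0.03 (-0.05 to 0.11). Periportal genes stood at 10091 and 9854 CPM (0.034, 0.014 to 0.055). Deciles 4 and 9, which hold no members, stood above the members for periportal genes, at 10263 and 10096 CPM. The intervals do not take in this variation between groups of spots. Among the periportal genes Sds, serine dehydratase, was at 0.39 (0.24 to 0.53), Hsd17b6, a steroid dehydrogenase, at 0.74 (0.42 to 1.05) and Hal, histidase, at 0.24 (0.10 to 0.37), while the urea cycle genes Cps1, Ass1, Asl and Arg1 lay between -0.05 and 0.01. None of the 13 pericentral and 15 periportal genes with at least 50 UMIs was 2-fold apart in either direction. Mitochondrially encoded genes stood at -0.10 (-0.11 to -0.10), and cytosolic ribosomal protein genes at 0.12 (0.11 to 0.12).

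**Figure D3:**
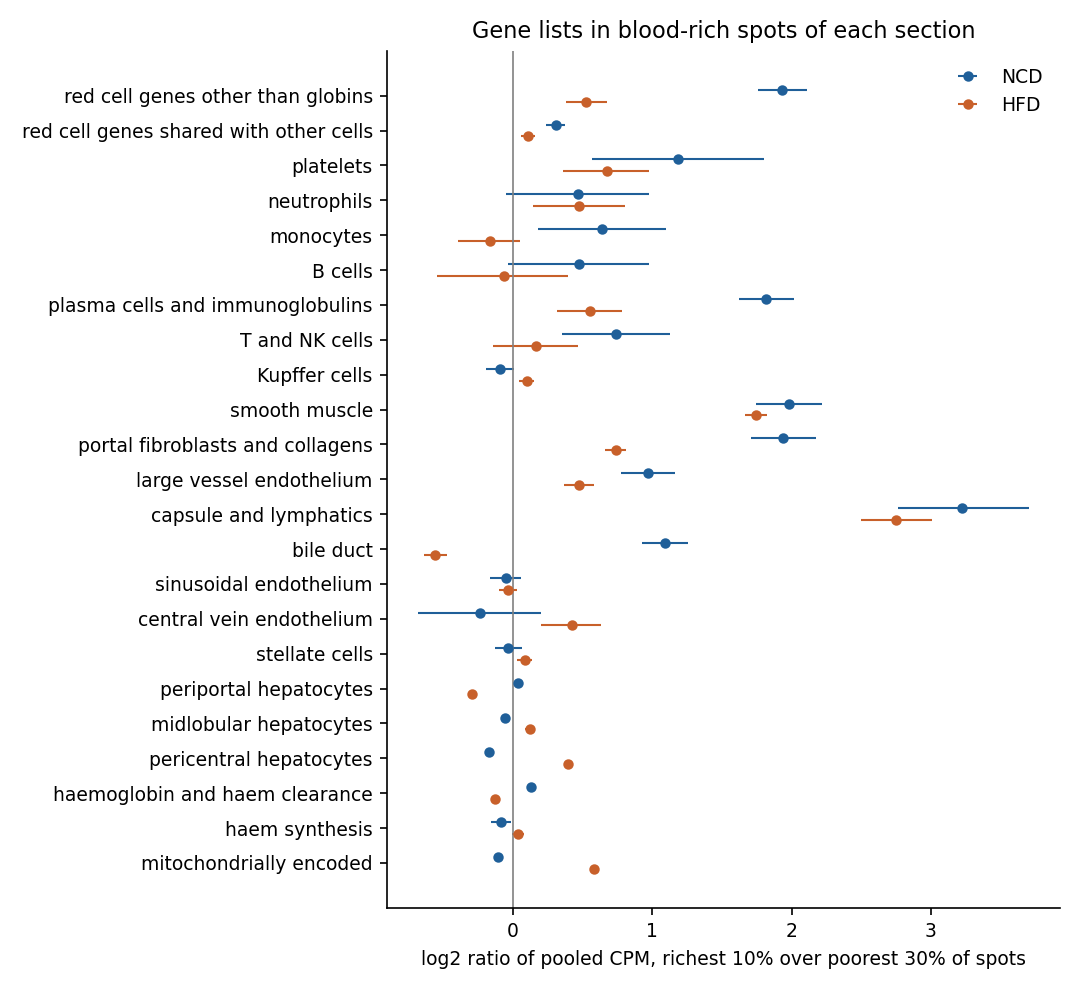
Points are log2 ratios of pooled CPM, richest 10% over poorest 30% of spots, for 23 gene lists in the NCD and HFD sections, and bars are exact 95% intervals for counting error. In the NCD section the lists of red cell genes other than globins, platelets, smooth muscle, fibroblasts, large vessels, immunoglobulins, lymphatics and bile duct lie above 0.9. Red cell genes shared with other cells lie at 0.31, and sinusoidal, stellate, Kupffer and hepatocyte lists lie between -0.2 and 0.1.

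Over all genes, the members differed from globin-poor spots in few. Of 3580 genes other than the globins with at least 200 UMIs over both groups, 34 (0.95%) were at least 1.5-fold higher in the members and 6 (0.168%) at least 1.5-fold lower, and the median log2 ratio was -0.023. A gene that is rare in the comparison spots could pass the minimum only where it was high in the members, as Ccl21a did. The 15 highest were Ccl21a, Gsn, Spp1, Iglc1, Gm42418, S100a6, Mkrn1, Gas6, Alas2, Lars2, Crip1, Igkc, Igfbp3, Ube2l6 and Ucp2. Gsn, gelsolin, an actin-severing protein of smooth muscle and plasma, had 239 UMIs in 91 members, 0 to 8 per member, and 85 UMIs in 55 comparison spots (2.68, 2.32 to 3.05). S100a6 and Crip1, small genes of mesenchymal cells, had log2 ratios of 1.73 and 1.54, Gas6, a ligand of TAM receptors, 1.63, Igfbp3, a carrier of insulin-like growth factors, 1.35 and Ucp2, a mitochondrial uncoupling protein of leukocytes, 1.21. Of the 34 genes, 11 belonged to a list described above. The share of list genes among all 3580 genes is not given here, so whether 11 is many cannot be said.

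The members differed from one another in Gm42418 and Lars2. Gm42418, a noncoding gene on chromosome 17 at a ribosomal RNA repeat, was at 1853 CPM in the members, 719 CPM in the middle and 522 CPM in the comparison spots (1.83, 1.76 to 1.89), and Lars2, a mitochondrial leucyl-tRNA synthetase, was at 164 and 55.9 CPM (1.55, 1.35 to 1.76). Reads from ribosomal RNA can be counted for such a gene. Up to 212 UMIs of Gm42418 lay in 1 member, with a median of 8. In NCD spots that also held vessel wall UMIs their log2 ratios were 2.05 and 1.88, and in NCD spots without them the values lay below 0, as given further on. In the HFD section they stood at 1.98 (1.81 to 2.16) and 1.33 (0.50 to 2.13) in spots without vessel wall UMIs.

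The 15 lowest genes were low by less than the highest were high. Zbtb20, a hepatocyte transcription repressor, led with 55 UMIs in 46 members and 225 UMIs in 168 comparison spots, 20.1 against 36.0 CPM (-0.85, -1.298 to -0.41). Chtop, an mRNA export factor, stood at -0.82, Ogfod2 at -0.70, Vps41, of the lysosome tethering complex, at -0.65, Coa7, a cytochrome oxidase assembly factor, at -0.65 and Tmem64 at -0.64. Hs3st3b1, Pacsin3, Fahd1, Gbe1, Fcna, Wasl, Isca2 and Maf lay between -0.58 and -0.52. After all spots were drawn down to 3000 UMIs Chtop stood at -0.056. Without that step, 0 of the 3580 genes were at least 2-fold lower and 17 were at least 2-fold higher.

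**Figure D4:**
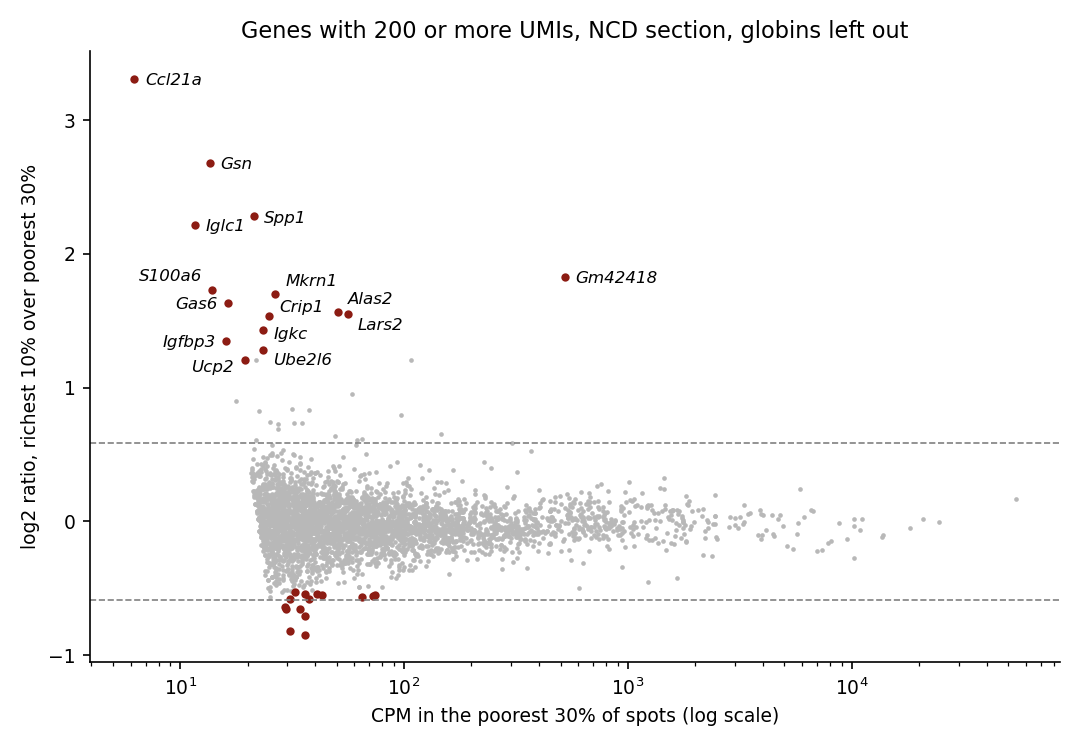
Each point is 1 of 3580 genes of the NCD section, with its level in the poorest 30% of spots (x axis, CPM, log scale) and its log2 ratio in the richest 10% over the poorest 30% (y axis). The 15 highest and 15 lowest genes are red, dashed lines mark 1.5-fold, and the 17 points past 2-fold all lie on the higher side.

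The members did not all hold a UMI of wall genes, and red cell genes were as high where none was detected. A UMI of the smooth muscle, fibroblast or capsule and lymphatic lists was present in 146 of 210 members (69.5%, 62.8 to 75.7) and in 288 of 632 comparison spots (45.6%, 41.6 to 49.5). At 3000 UMIs per spot these were 84 members (40.0%) and 128 comparison spots (20.3%). Spots without such a UMI were shallower, with a median of 6659.5 UMIs in the 64 members and 5497 in the 344 comparison spots. Spots with one had medians of 14319.5 and 10823 UMIs, so a missing UMI does not show that vessel wall was absent. In spots without such a UMI, red cell genes other than globins stood at 236 and 62.6 CPM (1.92, 1.57 to 2.26) and Alas2 at 137 and 47.4 CPM (1.53, 1.10 to 1.96). Gsn stood at 1.74, Mkrn1 at 1.32 and bile duct genes at 0.51 (0.12 to 0.88). Spp1 at 0.92 (-0.032 to 1.80), platelet genes at 0.67 (-0.97 to 2.10) and large vessel endothelium at 0.23 (-0.30 to 0.73) had intervals that reached below 0. By contrast Gm42418 stood at 455 and 495 CPM (-0.12, -0.32 to 0.072), Lars2 at -0.58 (-1.28 to 0.061), S100a6 at -0.82, Igfbp3 at -0.066, Iglc1 at -0.58, monocyte genes at -1.31 and the immunoglobulin list at -0.42, all with intervals that spanned 0. This split was chosen after the values had been seen.

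The members also varied among themselves by globin share. The richer 105 members (3.51% to 14.8%) and the other 105 (1.83% to 3.44%) had similar depth, with medians of 10838 and 11077 UMIs. Red cell genes other than globins stood at 356 and 168 CPM in these 2 sets (log2 ratio 1.09, 0.86 to 1.32) and Alas2 at 194 and 112 CPM. Platelet genes followed with 34 and 13 UMIs (1.59, 0.63 to 2.63), as did smooth muscle genes at 198 and 106 CPM (0.90, 0.60 to 1.19) and fibroblast genes (0.63, 0.35 to 0.92). Large vessel endothelium (0.15) and bile duct genes (0.22) had intervals that spanned 0. Lymphatic genes (-0.49, -0.92 to -0.066) and immunoglobulins (-1.14, -1.42 to -0.87) were lower in the richer set. Pericentral genes were lower there (-0.25, -0.28 to -0.22) and periportal genes higher (0.14, 0.10 to 0.17).

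Red cell genes stood above their level in poor spots only at the rich end of the ranking, whereas wall and bile duct genes did so over more of it. In the 10 deciles of the 2107 spots, red cell genes other than globins stood at 256 CPM in the richest decile, 98.9 CPM in decile 2, 73.8 CPM in decile 3 and between 62.6 and 72.3 CPM in the other 7. Alas2 stood at 149.9, 69.8 and 52.4 CPM in the first 3 deciles and between 43.8 and 56.6 CPM in the rest. Fibroblast genes stood at 152, 79.6, 106.5 and 72.2 CPM in the first 4 deciles and 31.5 to 60.6 CPM in the other 6. Bile duct genes were above 120 CPM in the first 5 deciles and between 92.0 and 110 CPM in the last 5. The median globin share fell from 3.48% in the richest decile to 1.13% and 0.452% in deciles 2 and 3.

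**Figure D5:**
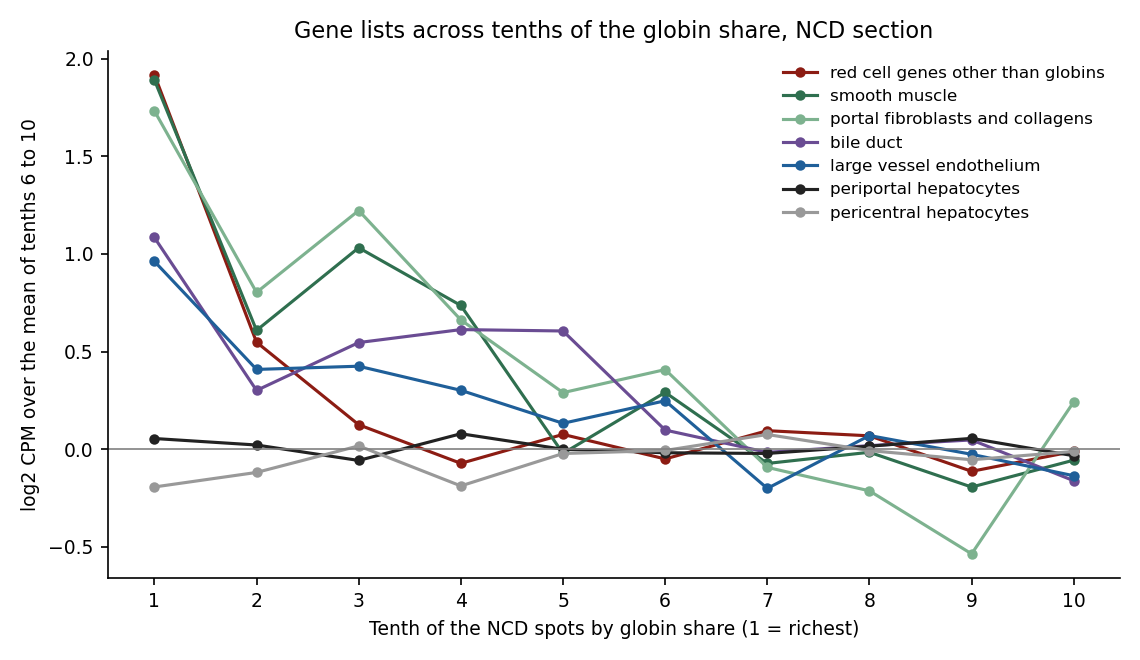
The x axis gives deciles of the NCD spots by globin share (1 is the richest) and the y axis the log2 of the pooled CPM of a list over its mean in deciles 6 to 10. Red cell genes fall steeply from decile 1 to 3, smooth muscle and fibroblast genes stay raised to decile 4 and bile duct genes to decile 5, and both hepatocyte lists stay within 0.2 of 0.

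The same rule in the HFD section gave 353 spots with less blood. They held 1.05% globin UMIs in all, between 0.286% and 13.5% per spot, and only 62 of 3538 HFD spots reached the NCD border of 1.83%. The values of the sections stand side by side with no test of their difference. Of 7950 HFD genes with at least 200 UMIs, 1.45% were at least 1.5-fold higher in its blood-rich spots and 0.667% lower, and of 11158 with at least 50 UMIs, 0.95% were at least 2-fold higher and 0.69% lower. Red cell genes other than globins stood at 0.53 (0.38 to 0.67) in the HFD section against 1.93 in the NCD section, and at 1.36 (1.06 to 1.64) in the 62 HFD spots at or above the NCD border, which are compared with the same poorest 30% of HFD spots. Alas2 stood at 60.8 and 44.3 CPM in rich and poor HFD spots (0.46, 0.27 to 0.64), the poor spots being close to the 50.6 CPM of the NCD section.

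Smooth muscle (1.74), lymphatic (2.75), fibroblast (0.74) and large vessel genes (0.48) were higher in blood-rich spots of the HFD section too, and Gm42418 stood at 2.41 there. Bile duct genes were lower at -0.56 (-0.64 to -0.47), with Spp1 at 136 CPM in rich and 245 CPM in poor HFD spots, against 104 and 21.3 CPM in the NCD section. The hepatocyte zones also lay the other way round, with pericentral genes at 0.40 and periportal genes at -0.29 in the HFD section against -0.17 and 0.034 in the NCD section. The NCD values are small, and pericentral genes in NCD decile 4 (12588 CPM) stood close to the members (12541 CPM). Depth differed as well, with a median of 13538 UMIs in rich and 23334 in poor HFD spots where the NCD section had 10969 and 7087.5, and with every HFD spot drawn down to 3000 UMIs the values were -0.47 (-0.68 to -0.26) for bile duct, 0.22 (0.18 to 0.26) for pericentral and -0.27 (-0.31 to -0.23) for periportal genes.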

How the data were processed

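Visium spatial transcriptomes of 1 NCD and 1 HFD liver section were analysed. For each section the authors deposited UMI counts that were not normalized, as 1 table of all spots and 1 of spots over tissue. Space Ranger and mm10 stand in the submitters' processing notes, version 1.3.1 and Cell Ranger 4 in the table headers. The annotation version was not given in the sources used here, so gene positions were taken from GENCODE M21 (GRCm38), which held 32158 of 32285 gene identifiers.

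Spots over tissue with at least 3000 UMIs were ranked by globin share (richest 10% against poorest 30%). Counts were pooled over spots and scaled to CPM with the 4 globins left out. Ratios have exact conditional binomial intervals, levels exact Poisson intervals and shares Clopper-Pearson intervals, at the 95% level, computed with Python 3.11.15, numpy 2.4.6, scipy 1.17.1 and pandas 2.3.3. As each diet has a single section, no test was run and no p-value is given, and called means past 1.5-fold (genes with at least 200 UMIs) or 2-fold (at least 50 UMIs). A count of 0 was set to 3 counts over a group for a bound.

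Genes named are the 15 highest and 15 lowest among genes with at least 200 UMIs that kept their direction at 3000 UMIs per spot (seed 1), and the genes of 39 lists. 1 list symbol was not in the table, and Ccl21a, which occurs on 2 lines of it, was summed. The members and lists were chosen with earlier results of these data known. The alternatives tried changed the depth minimum, the groups, the ranking chain, the total, the weighting and the gene minimum. Log2 ratios and intervals were tested on simulated Poisson counts pooled per gene. These hold no differences between spots, so the simulation cannot show how the intervals behave where UMIs gather in single spots. Spot positions and images were not used here. A few genes that these rules select are not reported here.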

Additional observations from a re-analysis of the deposited data

Results flagged for a closer look

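Differences between the sections were not tested, and each value is the log2 ratio of blood-rich over globin-poor spots. The NCD value is given first and the HFD value after it. Bile duct genes stood at 1.09 and -0.555, and Spp1 at 2.28 and -0.845. Pericentral hepatocyte genes stood at -0.168 and 0.398, midlobular genes at -0.055 and 0.123, and periportal genes at 0.0342 and -0.294. Mitochondrially encoded genes stood at -0.104 and 0.582 and cytosolic ribosomal protein genes at 0.117 and -0.0918. Secreted plasma proteins stood at 0.0807 and -0.0658, haemoglobin and haem clearance genes at 0.131 and -0.125, and acute phase genes at 0.0723 and -0.0725. Zbtb20 stood at -0.846 and 0.33. In each of these the intervals of the sections lie on opposite sides of 0 at full depth. With every spot drawn down to 3000 UMIs, acute phase genes stood at -0.032 (-0.12 to 0.055) and -0.039 (-0.092 to 0.013). Periportal genes then stood at 0.021 (-0.020 to 0.063) and -0.27 (-0.31 to -0.23). In the NCD section the midlobular and acute phase lists kept their sign in 14 of 16 other settings each, and the other 7 lists kept theirs in all 16.

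Globin shares as high as in the members also occurred in NCD spots that the ranking left out. Among the 741 spots off tissue with at least 3000 UMIs, 51 were at or above the border of 1.83%, and among the 1585 spots over tissue under 3000 UMIs, 129 were.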

How the results depend on the processing

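No paired analysis was possible because each diet has 1 section and the sections share only replicate number 1. Red cell genes other than globins stood between 1.36 and 2.41 in 16 settings (main value 1.93): 2.41 with the richest 5% as members and 1.36 with the richest 20%. Pericentral genes were below 0 in all 16: -0.13 with at least 1000 UMIs per spot, -0.19 with 5000, -0.31 with the richest 5%, -0.13 with the richest 20%, -0.14 drawn down to 3000 UMIs, -0.14 as a mean over spots, -0.13 ranked by alpha chains and -0.25 without the 10 spots with the most UMIs of a list in each group. Periportal genes were above 0 in all 16: 0.11 with the richest 5%, 0.085 against the poorest 10%, 0.055 ranked within depth bins and 0.0029 as a mean over spots. Their interval spanned 0 with at least 1000 UMIs per spot (0.019), drawn down (0.021) and without spots that held vessel wall UMIs (0.030).

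The 34 higher genes became 20 against the poorest 10%, 123 against all other spots, 11 drawn down, 52 as a mean over spots, 106 with at least 100 UMIs per gene, 11 with 500, 17 at 2-fold, 66 at 2-fold with 50 UMIs and 4 without spots that held vessel wall UMIs. Shared with the 34 were 16 of the 20, 26 of the 123, 8 of the 11 drawn down and 0 of the last 4. The 6 lower genes became 10 with at least 1000 UMIs per spot, 47 with the richest 5%, 2 with the richest 20%, 10 against the poorest 10%, 84 against all other spots, 16 within depth bins, 10 drawn down, 24 as a mean over spots, 10 ranked by beta chains, 49 with at least 100 UMIs per gene, 0 with 500, 0 at 2-fold and 27 at 2-fold with 50 UMIs. Against the poorest 10% and drawn down, 0 of the 10 were among the 6, and against all other spots 2 of the 84. Fewer or more genes pass the minimum in several of these settings, such as 1599 without spots that held vessel wall UMIs against 3580. In that setting Alas2 (1.53), Mkrn1 (1.32) and Gsn (1.74) held too few UMIs to be counted. Gm42418 held enough and stood at -0.12. The cause of the changes in number was not tested further. 

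Among named genes and lists past 1.5-fold, values that changed sign were Iglc1 against all other spots (-0.78) and without its 10 richest spots (-0.0022), and, without spots that held vessel wall UMIs, Iglc1 (-0.58), Gm42418 (-0.12), S100a6 (-0.82), Lars2 (-0.58), Igfbp3 (-0.066), monocyte genes (-1.31) and immunoglobulins (-0.42). Smaller values also crossed 0: of 16 settings the sign held in 15 for nuclear noncoding RNAs (lowest -0.12), hypoxia and Kupffer genes, in 14 for B cells (lowest -0.68), sinusoidal endothelium, midlobular, acute phase, lipid droplet and major urinary protein genes, in 13 for iron genes and in 11 for stellate and stem cell genes, and in 11 of 15 for cell cycle genes. The settings without wall spots, without the 10 richest spots, at 2-fold with 50 UMIs and at the NCD border in the HFD section were chosen after seeing the data. Depth limits genes with few UMIs, and no setting replaces a second animal.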

Other observations

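3 genes of antigen presentation were among those higher in the blood-rich NCD spots. They belong to no list, were picked after their values had been seen and do not speak for other genes of that kind. H2-Aa and H2-Eb1, chains of MHC class II, stood at 169 against 97.2 CPM (log2 ratio 0.80, 0.62 to 0.97) and 113 against 58.6 CPM (0.95, 0.73 to 1.17), and Cd74, their invariant chain, at 230 against 146 CPM (0.65, 0.51 to 0.80). In the HFD section the log2 ratios were 0.12 for H2-Aa, 0.39 for H2-Eb1 and 0.15 for Cd74. Ccl5, a chemokine of T and NK cells, stood at 0.61 (0.39 to 0.84) in NCD spots and -0.052 in HFD spots. Cd52, a lymphocyte surface glycoprotein, stood at 0.83 and 0.066.

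Some genes of the cytoskeleton and matrix were also among the genes at least 1.5-fold higher, and those given here were picked in the same way. Vim, vimentin, stood at 50.3 against 21.8 CPM (1.21, 0.86 to 1.56) and Tmsb10, a thymosin that binds actin, at 247 against 107 CPM (1.21, 1.05 to 1.36). In the HFD section Vim stood at 0.75 (0.61 to 0.89) and Tmsb10 at 0.16 (0.055 to 0.26). Bgn, the proteoglycan biglycan, stood at 0.61 (0.37 to 0.84) and Cst3, cystatin C, at 0.59 (0.48 to 0.69), with 0.43 and 0.40 in the HFD section. Immediate early genes, which respond to tissue handling, stood at 0.26 (0.12 to 0.40) over the list, with Fos at 14 and 13 UMIs and Junb at 44 and 52 UMIs, while heat shock genes stood at -0.069 (-0.12 to -0.019). Hypoxia response genes stood at -0.058, interferon-stimulated genes at 0.13, lipid droplet genes at 0.059, nuclear long noncoding RNAs at 0.37, major urinary proteins at -0.023, stem cell markers at 0.070 and general leukocyte genes at 0.77 (0.43 to 1.12).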
